A study of Rattus norvegicus with 8 samples.

Results

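Ion exchangers and cotransporters of 8 solute carrier families (Slc4, Slc8, Slc9, Slc12, Slc20, Slc24, Slc26 and Slc34) were examined in BRL-3A cells, an established line from rat liver. They were taken as every probe that is not a control and whose gene name in the scanner files begins with one of these family names followed by "a" and a number. This gave 52 of 35071 gene names, read by 73 of 41012 probes. The name pattern also takes in 3 proteins that carry no ion: Slc4a1ap, a protein named for binding the Slc4a1 exchanger, and the scaffold proteins Slc9a3r1 and Slc9a3r2, now called Nherf1 and Nherf2.

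The siRNA group held 4 RNA samples of BRL-3A cells given siRNA to lnc19959.2, a long noncoding RNA. The NC group held 4 RNA samples of the same line whose transfection is labelled NC. Per the labels, both groups were transfected with lipofectamine and harvested after 48 h, and each RNA was hybridised with a single dye to its own whole-genome rat array. The comparison asked how transcript levels differed after siRNA against a lncRNA that the series ties to triglyceride metabolism. No probe is named for lnc19959.2, so its own level is not given. Nothing in the labels says that the 4 samples of a group came from separate cultures, and each p-value below therefore covers the spread among these samples alone, which may be technical.

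Sodium-proton exchangers of the Slc9 family use the sodium gradient to move acid out of the cell or to set the pH of its compartments. Slc4 and Slc26 members exchange or carry bicarbonate, chloride, sulfate and other anions, Slc8 and Slc24 members exchange calcium for sodium, Slc12 members move chloride with sodium or potassium and set cell volume, and Slc20 and Slc34 members take up phosphate. In liver such carriers take part in bile formation, cell volume control and pH regulation.

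Levels below are log2 processed intensities minus the array's own 75th percentile, so 0 is the 75th percentile. Differences are siRNA minus NC on that log2 scale, with the standard error (SE) of the limma fit. A probe was kept for testing if the scanner software marked it well above background on 3 or 4 arrays of the siRNA group, the NC group or both. A call is a Benjamini-Hochberg adjusted p under 0.05 over all 24853 kept probes, and a gene is represented by its brightest kept probe. The 75th percentile of raw intensity lay between 289 and 322 on the siRNA arrays and between 245 and 261 on the NC arrays, and 55.4% to 59.1% of spots were well above background on siRNA arrays and 57.3% to 64.1% on NC arrays. Arrays correlated at 0.986 to 0.993 within groups and at 0.946 to 0.962 between them. The siRNA arrays shared one slide and scan and the NC arrays another, so slide, scan and transfection cannot be told apart in any value below.

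Defining hepatocyte genes were largely undetected: Alb, Ttr, Tat, Serpina1 and Tf were well above background on no array. The hepatocyte markers Cyp2e1 and Krt8 were above background on all. Of the fibroblast and stellate markers Col1a1, Col1a2 and Vim were above background on all arrays, Lrat on none and Thy1 on 2 NC arrays only. Of 12 hepatocyte markers 5 could be measured, of which 2 were called higher and 2 lower. Sums below are linear levels relative to the 75th percentile over all listed markers on the array, measured or not. The hepatocyte sum was 4.93 to 6.78 on siRNA arrays and 0.948 to 1.18 on NC arrays. The higher sum was carried by Cyp2e1, higher by 4.94 on the log2 scale (adjusted p = 9.64e-06, limma). Hnf4a was also higher (0.83), while Krt18 (-3.20) and Afp (-0.42) were lower. Krt18 was above background on 1 siRNA array and 4 NC arrays. Of 10 fibroblast and stellate markers 7 were measured (3 higher, 1 lower), with sums of 312 to 328 on siRNA arrays and 267 to 295 on NC arrays. Endothelial markers (4 of 6 measured, 2 higher and 2 lower) summed to 3.1 to 4.24 on siRNA arrays and 1.54 to 2.1 on NC arrays. That higher sum was carried by Kdr (1.64), while Vwf (-4.78) and Tek (-2.26) were lower and above background on no siRNA array. Cholangiocyte markers (2 of 6 measured, 1 higher and 1 lower) summed to 3.55 to 4.28 on siRNA arrays and 1.2 to 1.5 on NC arrays. Krt7 (1.75) carried that sum, while Sox9 was lower (-1.01). Among 7 leukocyte markers only Cd68 was measured, and it was called lower, with sums over the list of 0.575 to 0.719 on siRNA arrays and 2.11 to 2.67 on NC arrays. The part of such shifts in the results below was not tested, and less RNA per cell cannot be told apart from fewer cells that hold it.

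Of the 52 genes, 30 had a kept probe, through 43 of the 73 probes. A further 16 genes were above background on no array, and 6 were above background on some array without passing the filter. Among the 30 measured genes 7 were called higher, 9 lower and 14 were not called, where 61.4% of all 20674 genes tested were called, 29.7% higher and 31.7% lower. With a difference of at least 2-fold as well, 4 members were lower and 0 higher, where 10.5% of all genes were lower and 3.52% higher by that rule. Those 4 (Slc9a2, Slc9a4, Slc24a1 and Slc26a2) passed the filter through the NC group alone, where they were higher. The count thus rests on probes picked through the brighter group, and none has a value with a filter on all 8 arrays. Without the 3 binding proteins, 5 of 27 measured carriers were higher and 9 lower. The median difference was -0.02 over the 30 members and -0.02 over all genes. The number called higher fell to 4 without siRNA array 2 and also without NC array 2. It depended on the scaling too: 15 members were called higher and 8 lower without scaling and with median scaling, and 18 higher and 7 lower with spike-in scaling. These settings shifted the median of all probes by 0.25, 0.31 and 0.47. With them 11892, 13020 and 15484 of all 24853 kept probes were called higher, and 4793, 4211 and 3052 lower.

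**Figure D1:**
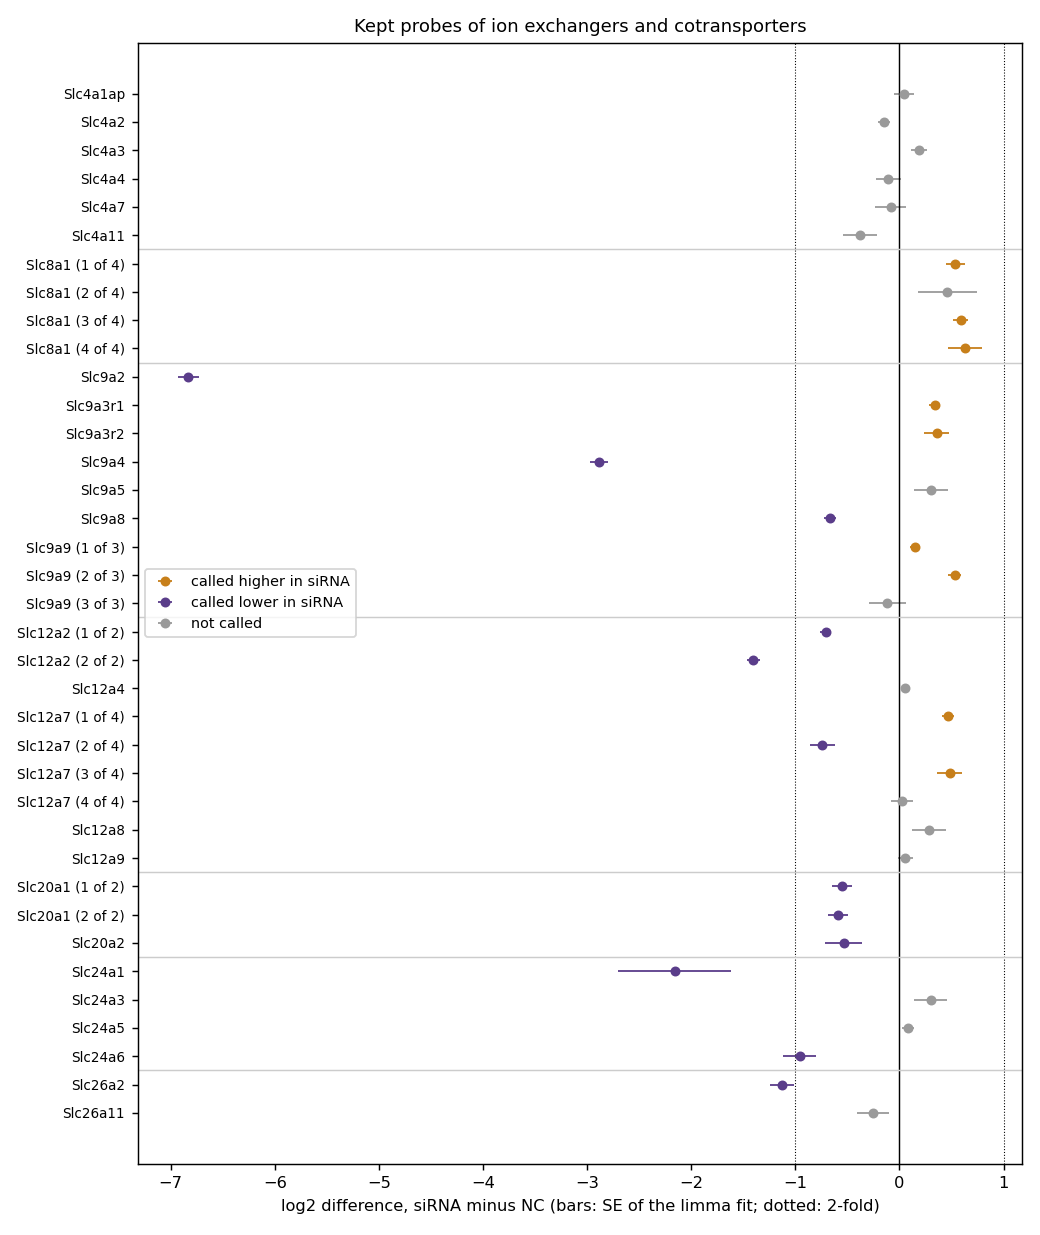
Log2 difference, siRNA minus NC (horizontal axis), for the kept probes reported here, grouped by family down the page; bars are the SE of the fit, dotted lines mark 2-fold, and colours mark calls at an adjusted p under 0.05. Slc9a2 lies far to the left at -6.83, no probe passes the 2-fold line on the right, and all 6 Slc4 probes are uncalled.

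The largest difference among the 43 kept probes was in Slc9a2, the sodium-proton exchanger NHE2, known from the apical membrane of gut and kidney epithelia. Raw processed intensity of its single probe was 4.25, 3.35, 3.66 and 4.27 on siRNA arrays 1 to 4, against 358, 412.5, 356.5 and 355.2 on NC arrays 1 to 4. In log2 levels the siRNA arrays stood at -6.09, -6.52, -6.33 and -6.24 and the NC arrays at 0.46, 0.69, 0.54 and 0.46. No siRNA array was well above background, all 4 NC arrays were, and the groups lay far apart with little spread among the NC arrays. The siRNA values lie near background, so their small spread does not measure spread of Slc9a2 RNA. The SE, adjusted p and rank below rest on these values. The fitted difference was -6.83 ± 0.10 (adjusted p = 3.95e-08, limma). The siRNA spots were not well above background, so the fold was set against a floor. The floor is the lowest signal well above background on each siRNA array. Against that floor the NC mean of 4 arrays was 32.0-fold higher. Some spots not marked well above background were brighter than spots that were, so this bound, and each one below, is approximate. On siRNA array 4 a Car1 probe at 25.64 was not marked and the Slc26a11 probe at 16.61 was. By fitted difference Slc9a2 ranked 5 from the lowest of 24853 kept probes. It stayed called lower in all 20 alternative settings that gave it a value, at -6.91 to -2.75, the smallest with normexp background correction.

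Slc9a4, the sodium-proton exchanger NHE4 known from stomach and kidney, was the only other member above background on no siRNA array and all NC arrays, a pattern shown by 3.15% of all genes. Its log2 levels were -6.07, -6.46, -6.29 and -6.16 on the siRNA arrays, against -3.31, -3.33, -3.39 and -3.42 on the NC arrays. The NC arrays were tightly grouped but low, with raw intensities of 23.4 to 26.3. The difference was -2.88 ± 0.09 (adjusted p = 3.83e-07, limma), and the approximate bound was 2.14-fold lower in the siRNA group. With normexp background correction the Slc9a4 difference was -0.97 and no longer called (adjusted p = 0.0773, limma). With normexp on spots above their local background it was -0.58 and called (adjusted p = 6.01e-06, limma), so the size of the Slc9a4 difference depends on the background correction.

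The probes behind both values are shown because each exchanger was read by a single kept 60-base probe, so its result rests on that sequence alone. The Slc9a2 probe lies at chr9:39915988-39916047 and the Slc9a4 probe at chr9:39767758-39771829, in the array design's positions on rn4, both on the plus strand. The Slc9a4 interval of 4072 bases is longer than the probe. No annotation of rn4 was used, so exon and UTR positions are not given.
Slc9a2 probe, 5′ to 3′: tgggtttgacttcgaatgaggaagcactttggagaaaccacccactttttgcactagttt
Slc9a4 probe, 5′ to 3′: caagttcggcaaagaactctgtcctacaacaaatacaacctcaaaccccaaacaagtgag

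**Figure D2:**
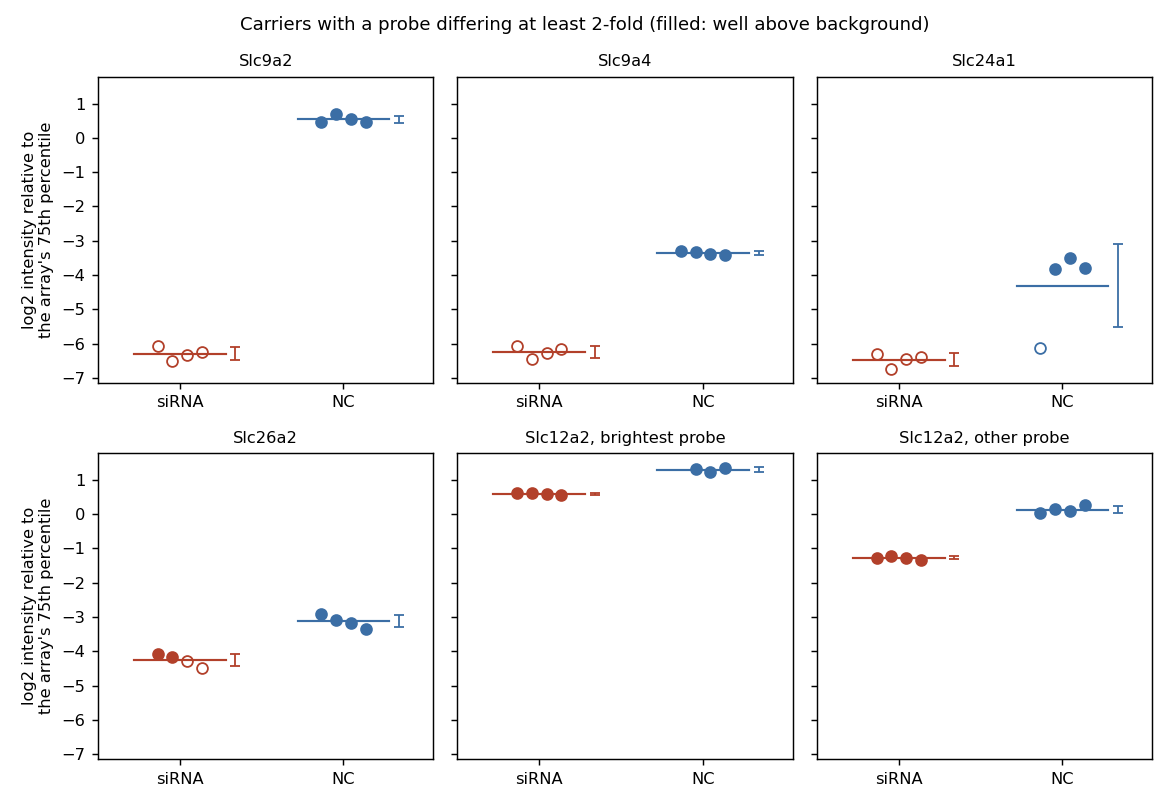
Log2 level relative to each array's 75th percentile (vertical axis) on each siRNA array (left) and NC array (right) for the carriers with a probe differing at least 2-fold, with both Slc12a2 probes; lines are group means, bars the SD, and filled points are well above background. Slc9a2 and Slc9a4 are filled on no siRNA array and on all NC arrays, NC array 1 of Slc24a1 sits with the siRNA arrays, and the brightest Slc12a2 probe has 3 NC points because its spot on NC array 1 was marked an outlier.

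The genes of Slc9a2 and Slc9a4 are neighbours. In RefSeq's GRCr8 annotation Slc9a4 spans chr9:50320948-50375336 and Slc9a2 chr9:50427612-50510043, followed by Mfsd9 and Tmem182. Probes within 1 Mb of the Slc9a2 probe on the design's chromosome were therefore listed, a choice made after seeing the data. Of 20 such probes 16 were kept, and 11 of these were called lower, 1 higher and 4 not, with 32.2% of all kept probes called lower and 29.4% higher. The count includes Slc9a2 and Slc9a4 themselves and several probes of one gene. Of the probes called lower, those of Slc9a2, Slc9a4, Tmem182, Il1rl2 and LOC100910304 passed the filter through the NC group alone, where they were higher. The count thus rests in part on probes picked through the brighter group, in a window centred on Slc9a2. It cannot show whether the region as a whole was lower.

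Beyond Slc9a2 and Slc9a4, Tmem182, a membrane protein gene whose probe lies 96.8 kb past that of Slc9a2, was well above background on no siRNA array and on all NC arrays. Its levels were -5.62, -4.98, -5.53 and -4.48 on siRNA arrays and -3.15, -3.58, -3.67 and -2.65 on NC arrays. The groups did not overlap, and by the approximate bound it was 2.3-fold lower in the siRNA group (-1.89 ± 0.31, adjusted p = 0.0012, limma). On the other side lie genes of the interleukin-1 receptor family. Il1r2 was lower (-1.13, adjusted p = 1.05e-05, limma), as were Il1rl2 (-1.46, adjusted p = 8.2e-05, limma) and both probes of Il1rl1 (-0.54 and -0.89), while Il1r1 was lower on 1 of its 2 probes (-0.47 and -0.34). Mfsd9, whose probe is the nearest at 11.6 kb, was detected on all arrays and stood at 0.32 ± 0.16 without passing the test (adjusted p = 0.111, limma). Map4k4, at -703.7 kb, did not pass either (-0.17, adjusted p = 0.343, limma). Lower calls thus lay on both sides of Slc9a2, and 4 kept probes of the window were not called.

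**Figure D3:**
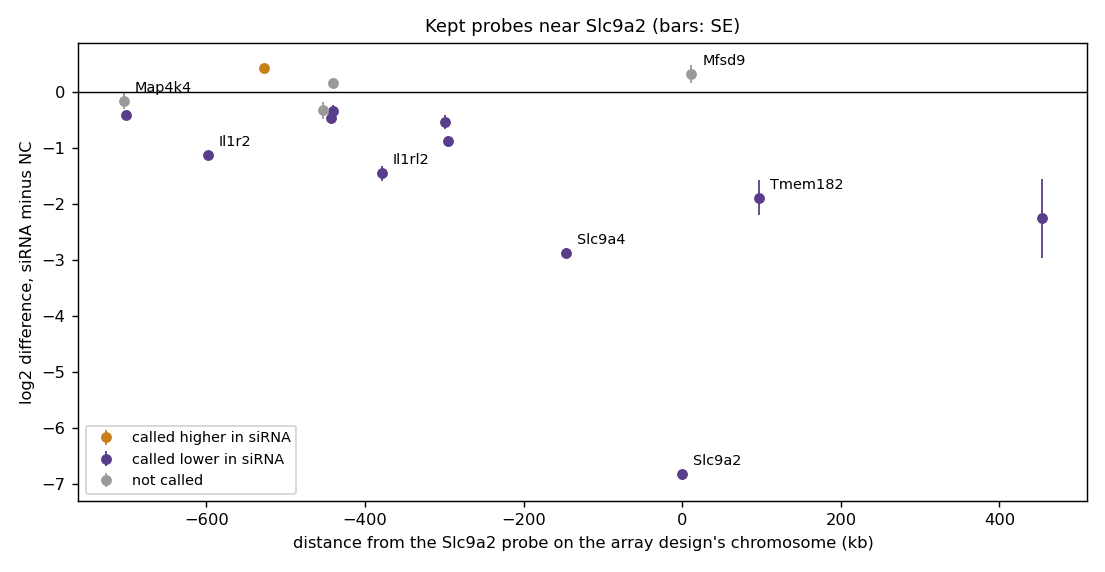
Log2 difference, siRNA minus NC (vertical axis), of the 16 kept probes within 1 Mb of the Slc9a2 probe against their distance from it in kb (horizontal axis); bars are the SE and colours mark calls. Slc9a2 is lowest at -6.83, Slc9a4 and Tmem182 flank it at -2.88 and -1.89, and Mfsd9 beside it stands at 0.32.

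RefSeq's promoter table for GRCr8 holds a window of 250 bases before to 50 after each start, and lists a pair of starts for Slc9a2 and a single one for Slc9a4. The first Slc9a2 window and the Slc9a4 window are shown because these neighbouring exchangers were lower together and their windows differ in base composition. The first Slc9a2 window (chr9:50427362-50427661, plus strand, GRCr8) is 78.3% G and C, against 48.0% for the second Slc9a2 window and for the Slc9a4 window (chr9:50320698-50320997, plus strand, GRCr8) and a median of 51.7% over 33469 windows. Motifs were searched by their letters on both strands: GC box GGGCGG (in 33.1% of all windows), EGR site GCGNGGGCG (4.98%), AP-1 site TGANTCA (7.33%) and CRE TGACGTCA (1.83%). The first Slc9a2 window held 7 GC boxes, some overlapping, and 1 EGR site, which are in capitals below. Neither of the other windows held these letters. A match is a description of the sequence and not a bound site.
Slc9a2 first start, 5′ to 3′: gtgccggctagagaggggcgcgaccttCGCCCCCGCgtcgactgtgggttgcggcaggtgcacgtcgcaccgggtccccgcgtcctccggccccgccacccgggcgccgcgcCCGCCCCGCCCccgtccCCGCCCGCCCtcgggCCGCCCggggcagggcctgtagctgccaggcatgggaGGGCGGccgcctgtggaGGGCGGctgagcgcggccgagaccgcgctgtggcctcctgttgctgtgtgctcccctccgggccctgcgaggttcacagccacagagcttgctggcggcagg
Slc9a4 start, 5′ to 3′: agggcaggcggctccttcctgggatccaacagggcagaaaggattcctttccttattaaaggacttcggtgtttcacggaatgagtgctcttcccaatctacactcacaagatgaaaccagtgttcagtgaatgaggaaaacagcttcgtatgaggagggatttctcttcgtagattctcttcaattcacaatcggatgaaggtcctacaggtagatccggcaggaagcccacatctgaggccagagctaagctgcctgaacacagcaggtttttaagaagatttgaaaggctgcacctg

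Among the other Slc9 members, Slc9a8, the NHE8 exchanger of the Golgi and related membranes, was lower. Its brightest probe stood at 2.08, 2.02, 1.97 and 2.01 on siRNA arrays and 2.62, 2.76, 2.76 and 2.60 on NC arrays. The groups were tight and apart (-0.67 ± 0.06, adjusted p = 4.56e-05, limma), and a dim second probe, above background on 0 siRNA and 2 NC arrays, was not tested. Only that second probe matched a current Slc9a8 symbol by accession, so the call rests on a probe assigned to Slc9a8 by its name in the scanner files. Slc9a3 and Slc9a7 were above background on no array.

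The scaffold Slc9a3r1 (Nherf1), which ties exchangers and other membrane proteins to the cytoskeleton through ezrin, was higher by 0.34 ± 0.05 (adjusted p = 0.000939, limma). It stood at 0.81, 0.73, 0.62 and 0.70 on siRNA arrays, all above the 0.39, 0.32, 0.37 and 0.41 on NC arrays. Its relative Slc9a3r2 (Nherf2) was higher by 0.36 ± 0.12 with overlapping groups (adjusted p = 0.0306, limma). That call was lost without siRNA array 2, 3 or 4 or NC array 1 or 2, at differences of 0.28 to 0.37 (adjusted p from 0.0573 to 0.0758, limma), and also with the percentile over bright probes (0.28, adjusted p = 0.0874, limma), with normexp (0.22, adjusted p = 0.245, limma) and with no filter (adjusted p = 0.0514, limma). Slc9a9, the endosomal exchanger NHE9, was higher by 0.15 ± 0.05 on its brightest probe (adjusted p = 0.037, limma), by 0.53 on a second (adjusted p = 0.000194, limma), and stood at -0.12 on its last probe, which did not pass. The brightest Slc9a9 probe lost its call without siRNA array 1, 2 or 3 or NC array 2, 3 or 4 (0.13 to 0.16, adjusted p from 0.0655 to 0.0976, limma). It was also lost with the percentile over bright probes (0.07, adjusted p = 0.211, limma) and with no filter (adjusted p = 0.0824, limma), and with normexp the sign turned (-0.09, adjusted p = 0.717, limma). With normexp the calls of Slc9a8 (-0.39, adjusted p = 0.228, limma) and Slc9a3r1 (0.37, adjusted p = 0.0667, limma) were lost. Slc9a5 (0.30, adjusted p = 0.142, limma) was not called.

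**Figure D4:**
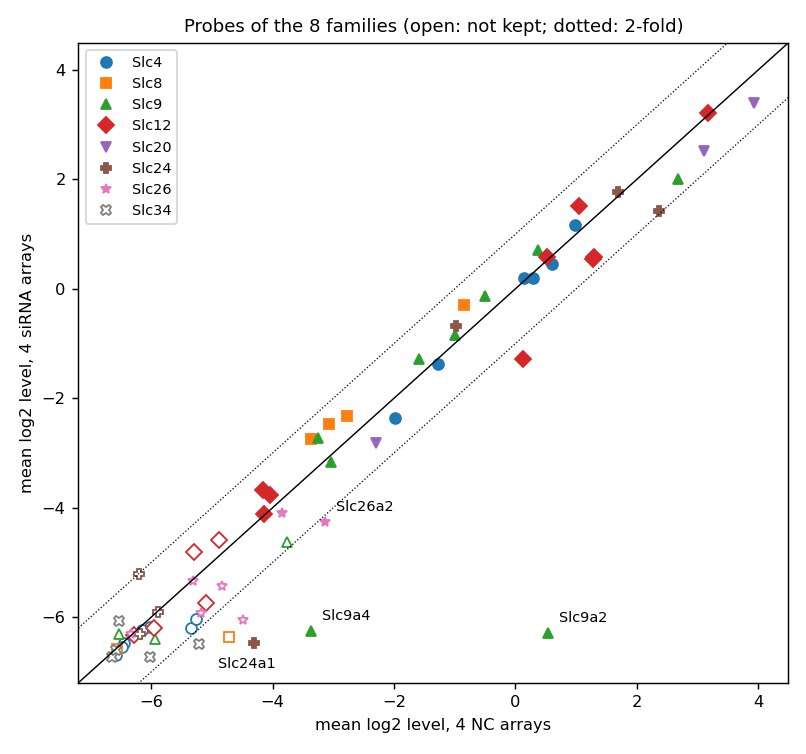
Mean log2 level on the 4 siRNA arrays (vertical axis) against the 4 NC arrays (horizontal axis) for the probes reported here, with symbols by family; open symbols failed the background filter, the solid line is equality and dotted lines are 2-fold. Most probes lie along the line, open symbols gather at the dim end, and Slc9a2 stands alone at -6.29 on siRNA arrays and 0.54 on NC arrays.

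The Slc12 cation-chloride cotransporters had 6 measured genes of 9, with 1 called higher, 1 lower and 4 not. Slc12a2, the sodium-potassium-chloride cotransporter NKCC1, was lower on both of its probes. Its brightest probe stood at 0.61, 0.60, 0.58 and 0.55 on siRNA arrays and at 1.30, 1.22 and 1.36 on NC arrays 2, 3 and 4, since the spot on NC array 1 was marked an outlier and left out of the fit. The difference was -0.71 ± 0.05 (adjusted p = 6.11e-05, limma). The other probe had -1.26, -1.22, -1.28 and -1.33 on siRNA arrays and 0.02, 0.15, 0.08 and 0.26 on NC arrays, a difference of -1.40 ± 0.06 (adjusted p = 2.16e-06, limma). The groups were apart on both probes, and the dimmer probe gave the larger difference.

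Slc12a7, the potassium-chloride cotransporter KCC4, was the only member with kept probes called in opposite directions. Its brightest probe stood at 1.60, 1.45, 1.57 and 1.46 on siRNA arrays and 1.09, 1.03, 0.96 and 1.12 on NC arrays (0.47 ± 0.06, adjusted p = 0.000297, limma). A second probe stood at 0.64, 0.61, 0.53 and 0.38 on siRNA arrays and 1.32, 1.48, 1.38 and 0.95 on NC arrays (-0.74 ± 0.12, adjusted p = 0.00103, limma). Neither pair of groups overlapped. Of the other, dim probes one was higher by 0.48 ± 0.12 (adjusted p = 0.0085, limma) and one stood at 0.02 (adjusted p = 0.861, limma), so the direction of Slc12a7 depends on the probe read. The lower call of the second probe was lost with spike-in scaling (-0.27, adjusted p = 0.0728, limma) and normexp (-0.48, adjusted p = 0.1, limma), and the mean of the kept probes of Slc12a7 was not called (0.06, adjusted p = 0.281, limma).

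The Slc12a2 and Slc12a7 probes are shown because they read the same gene in different places and gave different values. On rn4 the brightest Slc12a2 probe lies at chr18:53739918-53739977 and the other at chr18:53700271-53702611, both on the plus strand. The brightest Slc12a7 probe lies at chr1:30281140-30281199 and the second, called lower, at chr1:30312992-30334030, both on the minus strand. The intervals of 2341 bases for the other Slc12a2 probe and 21039 bases for the second Slc12a7 probe are longer than the 60-base probes.
Slc12a2 brightest probe, 5′ to 3′: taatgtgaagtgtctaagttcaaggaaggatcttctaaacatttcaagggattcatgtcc
Slc12a2 other probe, 5′ to 3′: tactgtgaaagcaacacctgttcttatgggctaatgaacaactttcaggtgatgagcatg
Slc12a7 brightest probe, 5′ to 3′: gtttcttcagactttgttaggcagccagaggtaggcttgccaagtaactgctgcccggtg
Slc12a7 second probe, 5′ to 3′: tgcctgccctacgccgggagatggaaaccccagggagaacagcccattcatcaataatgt

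Among the other Slc12 members, Slc12a4 (KCC1) stood at 0.05, Slc12a9 at 0.06 and Slc12a8 at 0.28, none called. Slc12a8 passed the test, as higher, without NC array 3 (0.41, adjusted p = 0.0348, limma) and under 5 of the 6 other scalings, from 0.53 without scaling (adjusted p = 0.0106, limma) to 0.75 with spike-in scaling (adjusted p = 0.00203, limma). With normexp its sign turned (-0.47, adjusted p = 0.301, limma). Of the kidney and brain forms, the thiazide-sensitive Slc12a3 was above background on no array, and Slc12a1 and Slc12a5 on 1 siRNA array each.

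Both phosphate transporters of the Slc20 family were called lower, with calls that depended on the scaling. Slc20a1 (PiT1), also known as a retrovirus receptor, stood at 3.52, 3.37, 3.47 and 3.20 on siRNA arrays and 3.88, 4.01, 4.11 and 3.76 on NC arrays. Its groups did not overlap (-0.55 ± 0.10, adjusted p = 0.00189, limma), and its second probe gave -0.59 (adjusted p = 0.00108, limma). Both Slc20a1 calls were lost with spike-in scaling (-0.08, adjusted p = 0.463, and -0.12, adjusted p = 0.266, limma) and with normexp (-0.25, adjusted p = 0.461, and -0.30, adjusted p = 0.381, limma). Slc20a2 (PiT2) was lower by 0.54 on the log2 scale with overlapping groups (-0.54 ± 0.18, adjusted p = 0.0318, limma). That call was lost without siRNA array 1, 2 or 3 or NC array 3 or 4 (-0.53 to -0.40, adjusted p from 0.0577 to 0.0766, limma). It was also lost without scaling (-0.29, adjusted p = 0.219, limma), with median scaling (-0.23, adjusted p = 0.291, limma), quantile normalization (-0.34, adjusted p = 0.142, limma), cyclic loess (-0.36, adjusted p = 0.116, limma) and spike-in scaling (-0.07, adjusted p = 0.752, limma), with normexp (adjusted p = 0.129, limma) and with no filter (adjusted p = 0.0507, limma). No Slc34 phosphate transporter was measured: of 3 genes, Slc34a1 and Slc34a3 were above background on no array and Slc34a2 on 1 NC array.

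The calcium exchangers moved in both directions. Slc8a1, the plasma membrane sodium-calcium exchanger NCX1, was higher on its brightest probe, at -0.37, -0.19, -0.31 and -0.33 on siRNA arrays and -0.74, -0.78, -1.09 and -0.74 on NC arrays (0.54 ± 0.09, adjusted p = 0.00132, limma). Of 3 further probes 0.59 and 0.63 were called (adjusted p = 0.000279 and 0.0107, limma) and 0.46 was not (adjusted p = 0.192, limma). With normexp the brightest Slc8a1 probe was not called (0.29, adjusted p = 0.183, limma) and the other called probes turned sign (-0.12 and -0.24). Slc8a2 and Slc8a3 were above background on no array.

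Slc24a6, listed now as Slc8b1 and known as the mitochondrial sodium-calcium exchanger, was lower. It stood at 1.58, 1.41, 1.36 and 1.31 on siRNA arrays and 2.16, 2.35, 2.85 and 2.13 on NC arrays. The groups did not overlap (-0.96 ± 0.16, adjusted p = 0.00124, limma), and NC array 3 was the highest. With normexp Slc24a6 was not called (-0.69, adjusted p = 0.113, limma). Slc24a1, a potassium-dependent sodium-calcium exchanger known from rod photoreceptors, was dim throughout: -6.31, -6.73, -6.44 and -6.38 on siRNA arrays and -6.12, -3.81, -3.50 and -3.80 on NC arrays. It was above background on no siRNA array and on 3 of 4 NC arrays, and NC array 1 sat at the level of the siRNA arrays. The fit gave -2.16 ± 0.54 (adjusted p = 0.00944, limma), or -2.76 ± 0.13 without NC array 1 (adjusted p = 1.44e-05, limma), but the approximate bound is only 1.11-fold lower. With normexp it was not called (-0.93, adjusted p = 0.0797, limma), and with normexp on spots above their local background it was -0.43 (adjusted p = 0.0059, limma). Slc24a3 (0.30) and the melanosome exchanger Slc24a5 (0.08) were not called, and Slc24a3 passed, as higher, without siRNA array 1 (0.41, adjusted p = 0.0399, limma), without scaling (0.55, adjusted p = 0.0307, limma), with median scaling (0.61, adjusted p = 0.00982, limma) and with spike-in scaling (0.77, adjusted p = 0.00326, limma). Slc24a2 and Slc24a4 were above background on no array.

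Of the Slc26 anion exchangers 2 of 7 genes were measured. Slc26a2, the sulfate transporter mutated in human diastrophic dysplasia, was lower. It stood at -4.09, -4.16, -4.29 and -4.49 on siRNA arrays, of which 2 were above background, and at -2.92, -3.09, -3.17 and -3.34 on NC arrays, all above background. The difference was -1.13 ± 0.12 (adjusted p = 0.000118, limma) and the groups were apart. Over the 6 other scalings it ran from -1.21 to -0.65 and stayed called. With normexp it was not called (-0.69, adjusted p = 0.145, limma), and with normexp on spots above their local background it was -0.33 and called (adjusted p = 0.000535, limma). Slc26a11, another sulfate transporter, stood at -0.25 and was not called (adjusted p = 0.193, limma), but passed without siRNA array 1 (-0.39, adjusted p = 0.0254, limma) and turned to 0.20 with quantile normalization. Slc26a4 (pendrin) was above background on no siRNA array and 2 NC arrays.

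The Slc4 family gave no call in 6 measured genes of 11 with the percentile scaling used here, counts that include the binding protein Slc4a1ap. Their differences ran from -0.38 to 0.19. Slc4a2, the anion exchanger AE2 that serves bile secretion, stood at 0.48, 0.42, 0.43 and 0.47 on siRNA arrays and 0.53, 0.52, 0.59 and 0.74 on NC arrays. The groups did not overlap, but the test was not passed (-0.15 ± 0.06, adjusted p = 0.0593, limma). Slc4a2 was called lower with quantile normalization (-0.17, adjusted p = 0.0444, limma), cyclic loess (-0.20, adjusted p = 0.0171, limma), the percentile over bright probes (-0.23, adjusted p = 0.0176, limma) and an intensity trend (adjusted p = 0.0444, limma). It was called higher with spike-in scaling (0.32, adjusted p = 0.0014, limma), so its direction rests on the scaling. Slc4a3 (AE3) stood at 0.19 ± 0.08 (adjusted p = 0.0659, limma) and passed without NC array 3 (0.24, adjusted p = 0.0278, limma). It also passed, as higher, without scaling (0.44, adjusted p = 0.00226, limma), with median scaling (0.50, adjusted p = 0.000302, limma), with spike-in scaling (0.66, adjusted p = 0.000106, limma), with an intensity trend (adjusted p = 0.0471, limma) and with normexp on spots above their local background (0.22, adjusted p = 0.0271, limma). Slc4a11 stood at -0.38 ± 0.17 (adjusted p = 0.0808, limma) and passed, as lower, without siRNA array 4 (-0.54, adjusted p = 0.00369, limma) and with normexp on spots above their local background (-0.24, adjusted p = 0.00725, limma). The sodium bicarbonate cotransporters Slc4a4 (-0.11) and Slc4a7 (-0.08) and the binding protein Slc4a1ap (0.04) differed by less than their SE and were not called. The other Slc4 genes (Slc4a1, Slc4a5, Slc4a8, Slc4a9 and Slc4a10) were above background on no array.

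A list of 63 pumps, kinases and binding partners of these carriers held 39 measured genes, of which 17 were called higher, 12 lower and 10 not, with a median difference of 0.07. These shares stand beside 29.7% of all genes called higher and 31.7% lower. With spike-in scaling 29 were higher and 5 lower, and with median scaling 26 higher and 7 lower. All kept probes shifted too: of 24853, 15484 were then higher and 3052 lower with spike-in scaling, and 13020 and 4211 with median scaling.

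The WNK and SPAK system phosphorylates and so switches Slc12 cotransporters. Of its 9 measured kinases and regulators, 3 were higher, 3 lower and 3 not called. Wnk1, counted as higher by its brightest probe, had 1 of 4 kept probes called higher and 1 lower. Stk39, the SPAK kinase that activates NKCC1, stood at 0.10, 0.27, 0.28 and 0.37 on siRNA arrays and -0.93, -1.15, -1.09 and -0.93 on NC arrays. It was higher by 1.28 ± 0.08 (adjusted p = 1.11e-05, limma) with the groups apart. Cab39l, a relative of the SPAK cofactor Cab39, was higher by 0.37 (adjusted p = 0.000278, limma). Sgk1, a kinase that raises sodium transport, was lower (-1.15 ± 0.11, adjusted p = 9.23e-05, limma), as was Wnk4 (-0.82, adjusted p = 0.00511, limma). The Wnk4 probe was dim, above background on 1 siRNA array and 3 NC arrays.

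Of 10 measured binding partners 6 were higher and 2 lower by the brightest probe. Kept probes disagreed for 2 of those counted as higher. Ahcyl1 had 3 probes called higher and 1 lower, and Xpr1 had 1 higher and 1 lower. Ezrin (Ezr, 0.48) and radixin (Rdx, 0.53), which link membrane proteins to actin, were higher, Ezr on 1 of its 2 kept probes. Their relative moesin (Msn) was lower (-0.55, adjusted p = 0.00555, limma). Nherf4, a further scaffold of the Nherf group, was above background on no siRNA array and all NC arrays. By the approximate bound it was 5.96-fold lower in the siRNA group (-3.03 ± 0.12, adjusted p = 1.31e-06, limma).

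The sodium pump makes the gradient that most of these carriers spend. Of 9 measured subunits and FXYD regulators 4 were higher and 3 lower. The beta subunit Atp1b1 stood at 3.96, 4.05, 4.00 and 4.02 on siRNA arrays and 2.10, 1.93, 1.82 and 2.13 on NC arrays, higher by 2.01 ± 0.08 (adjusted p = 1.07e-06, limma). The regulator Fxyd3 was higher by 2.24 ± 0.10 (adjusted p = 2.76e-06, limma). The beta subunit Atp1b2 was lower (-1.27 ± 0.09, adjusted p = 2.46e-05, limma), as was Fxyd5 (-0.55 ± 0.05).

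Of 6 measured calcium pumps 1 was higher and 3 lower. The Golgi pump Atp2c1 was higher by 0.57 ± 0.07 (adjusted p = 0.000211, limma). The endoplasmic reticulum pump Atp2a3 was above background on no siRNA array and lower there than on NC arrays by an approximate bound of 2.04-fold (-2.80 ± 0.30). The plasma membrane pump Atp2b1 was lower by less (-0.23 ± 0.07, adjusted p = 0.0231, limma). Of 5 measured carbonic anhydrases, which make the bicarbonate that Slc4 and Slc26 members carry, 3 were higher and 1 lower. Car2 was higher by 1.07 ± 0.07 (adjusted p = 1.24e-05, limma) and Car11, a member without known catalytic activity, by 0.58 ± 0.05, while the mitochondrial Car5b was lower (-0.44 ± 0.06, adjusted p = 0.000375, limma).

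**Figure D5:**
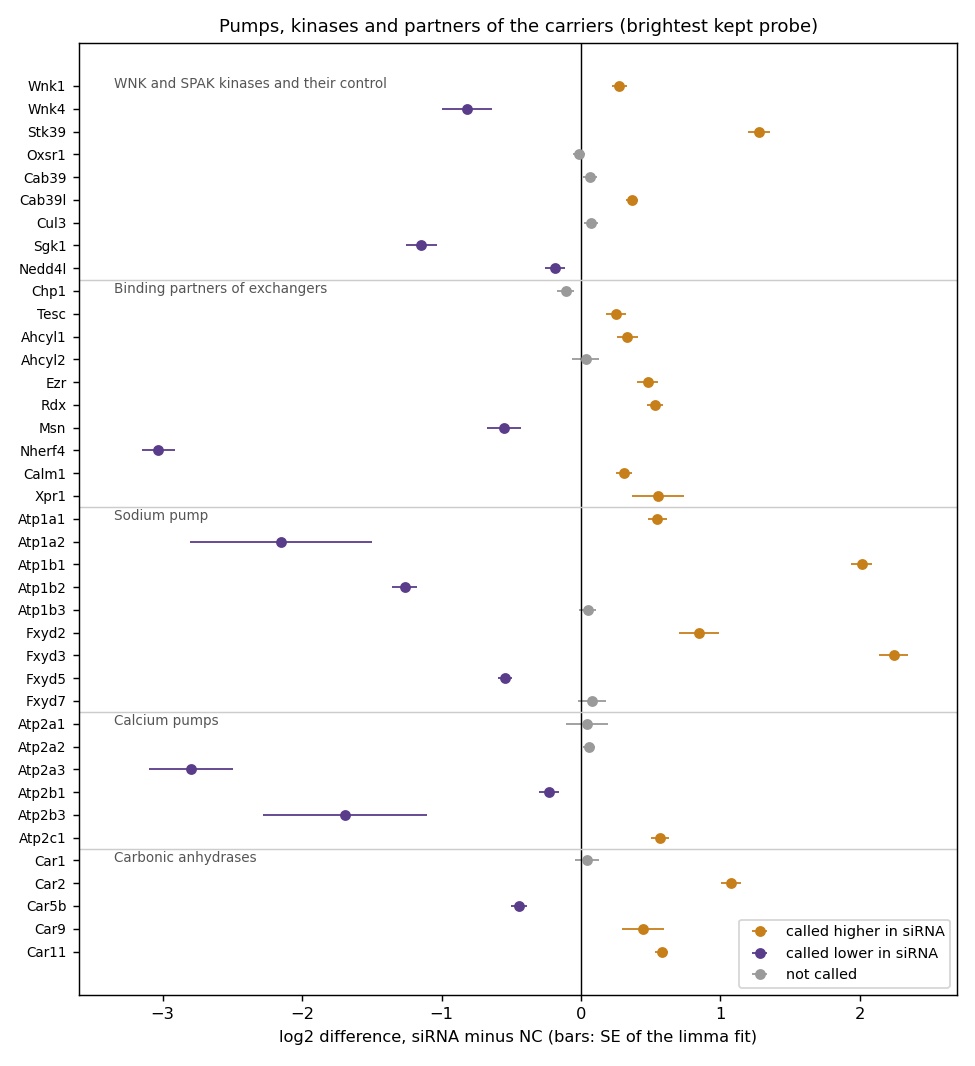
Log2 difference, siRNA minus NC (horizontal axis), of the brightest kept probe of each of the 39 measured partner genes, grouped by role down the page; bars are the SE of the fit and colours mark calls. Atp1b1 and Fxyd3 lie furthest right at 2.01 and 2.24, and Nherf4 and Atp2a3 furthest left at -3.03 and -2.80.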

How the data were processed

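BRL-3A RNA was measured on 8 single-dye Agilent arrays, 4 per group as the labels give them. The deposited scanner files hold spot intensity: Agilent Feature Extraction made processed intensities from them (version 12.0.3.1 per the file headers, 12.0 in the submitters' processing notes, which also name limma with no role). These are background-subtracted and detrended, hold surrogate values where a spot is near its background, and were not scaled from array to array, so levels of undetected probes are not measured expression. Probe names and positions come from the array design on rn4; 63 of the 73 probes matched a current symbol in RefSeq's GRCr8 table by accession.

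From these, log2 processed intensity minus each array's 75th percentile over the 43379 non-control spots was computed. Outlier-marked spots (129 to 174 per array) were left out, spots of a probe were averaged, and no spot was saturated. Probes well above background on at least 3 of 4 arrays of a group were kept (24853 of 41012). Differences between groups were fitted by lmFit and eBayes of limma 3.58.1 (R 4.3.3), with two-sided p-values adjusted by Benjamini-Hochberg across all kept probes, and the code was tested on simulated data. The number of arrays limits the precision.

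The members and lists were chosen with earlier results of these data known. Array values are given for Slc9a2, for members called with a difference of at least 2-fold or with a bound, and for opposite probes; further members are up to 3 a family by adjusted p, with the others by value only, and partners up to 2 a role and direction. Array values of other members were added after seeing the data. Deviations of same-numbered arrays from their group means correlated at 0.01, 0.03, -0.03 and 0.21, so replicate numbers were not treated as pairs. Alternatives varied the scaling, background correction, filter, probe choice, arrays and test. Single genes of these families that are not reported here stay in the fits and the counts. A deposited table of log2 values lists no probe of these genes and was not used.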

Additional observations from a re-analysis of the deposited data

Results flagged for a closer look

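In 53 sets of 4 arrays, 1 array stood further from the rest than Dixon's 95% limit in 4 cases; chance gives about 1 in 20. NC array 1 stood apart for Slc24a1 at -6.12, below the other NC arrays. NC array 1 was also the highest for the dimmest of the 4 Slc8a1 probes, at -3.07, and for the brightest Slc9a9 probe, at -0.90. NC array 3 was the lowest for the brightest Slc8a1 probe, at -1.09.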

How the results depend on the processing

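Slc9a2 kept its direction and call in all 20 settings that gave it a value. The counts moved with scaling. Member genes called higher numbered 15 without scaling, 15 with median scaling, 18 with spike-in scaling, 4 with the percentile taken over bright probes alone and 4 with no filter, against 7; member genes called lower were 5 with a filter on all 8 arrays, against 9, since Slc9a2, Slc9a4, Slc24a1 and Slc26a2 then have no value. Partner genes split into 26 higher and 7 lower with median scaling, into 29 higher and 5 lower with spike-in scaling, and 6 were lower with the filter on all 8 arrays. Kept probes higher and lower, 7310 and 8006, became 11892 and 4793 without scaling, 13020 and 4211 when scaled to the median, and 15484 and 3052 when scaled to the spike-ins. With normexp the counts were 1 and 2 for members, 6 and 2 for partners, and 1935 and 1694 for probes. Leaving out 1 array gave 4 to 7 members higher and 8 to 10 lower, 15 to 17 partners higher and 8 to 11 lower, and 6571 to 7343 probes higher and 7020 to 7782 lower. With the replicate number as a block, 6 members were higher and 10 lower, and 17 partners higher and 11 lower. For probes that block gave 7097 higher and 7895 lower. Whether same-numbered arrays share anything beyond the number is not known. Signs turned for Slc4a2 (0.10 without scaling, 0.16 with median and 0.32 with spike-in scaling), Slc26a11 (0.058 with median scaling, 0.20 with quantile normalization, 0.13 with cyclic loess, 0.22 with spike-in scaling) and Slc4a11 (0.092 with spike-in scaling). With normexp they turned for Slc9a9 (-0.085 on the brightest and -0.21 on the second probe), Slc12a8 (-0.47, or -0.037 without spots dimmer than their local background), 1 dim Slc12a7 probe (-0.34) and the dimmer Slc8a1 probes (-0.12 and -0.24). The cause was not tested. The authors' table gave no value for any member. Signal near background limits what can be said of the 22 unmeasured genes and of the size of the Slc9a2, Slc9a4 and Slc24a1 differences.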
